A study of Mus musculus with 33 samples.

Results

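Endothelial cells of the adult liver were compared with and without 2 added copies of Runx1, across every gene in the expression table and across the open chromatin lists of the same 2 groups. The comparison took in 8 of the 33 samples of the series: 2 RNA-seq and 2 ATAC-seq libraries of each group, chosen by their labelled organ and genotype and not by any measured value. The animals were adults of 4 to 6 weeks on a mixed C57BL/6J-129Sv/J background. The group 2Runx1 carried Cre and 2 copies of CKI (genotype "Cre; CKI/CKI"), and Ctrl carried the same knock-in allele (genotype "CKI/CKI; CKI/+") with no Cre named. All were females given 2 mg tamoxifen by gavage, and neither the time from gavage to harvest nor the promoter driving Cre is stated by the labels. Presence of Cre and the added copies therefore cannot be told apart in these groups. The sort kept CD31+ VEC+ cells that were cKIT lo/+ and discarded cells with CD41, CD45 or Ter119. The embryonic RNA libraries were E9.5 Ctrl and 1Runx1 (1 added copy) and E13.5 Ctrl, 1Runx1 and 2Runx1. They were labelled as harvested 24 hours after tamoxifen, and all 13 RNA libraries of the series shared 1 fit. The labels do not say whether replicates came from separate animals, so the p-values reflect library-to-library spread, which may be technical.

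RUNX1 is a transcription factor that binds DNA together with its partner CBFB. In the embryo it drives a small set of endothelial cells to turn into blood cells, and it is then kept in most blood lineages and is low in adult endothelium. The liver sinusoid is lined by an unusual endothelium, rich in scavenger receptors, that has different programmes near the portal vessels and near the central vein and that secretes Wnt and BMP ligands read by hepatocytes. The title of the series concerns RUNX1, TGFβ target accessibility and hemogenic specification.

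Reads assigned to genes came to 38149597 to 42975203 in the 4 liver RNA libraries. They were recovered from the deposited RPKM values (reads scaled to gene length and library depth) as the smallest whole numbers that match. In each library 10882 to 10971 genes reached an RPKM of 1. The labelled cell type was borne out by its markers. The 26 endothelial identity genes summed to 9153 and 9072 RPKM in Ctrl and 9139 and 8795 in 2Runx1, and the 22 liver sinusoidal genes to 20186 and 20083 against 18398 and 18009. Genes of other liver cells were present at lower levels, some of them unequal between the groups. The 16 stellate and mesenchymal genes summed to 109 and 107 RPKM in Ctrl against 51.8 and 56.8 in 2Runx1, and the 20 macrophage genes to 715 and 734 against 558 and 573. A sum follows its most abundant members: the mean log2(RPKM + 1) of the macrophage genes was 3.46 and 3.49 in Ctrl against 3.45 and 3.49 in 2Runx1, while that of the stellate genes was 1.88 and 1.82 against 1.42 and 1.45. The 20 leukocyte genes summed to 359 and 362 against 325 and 313, with a mean log2 of 2.14 and 2.2 against 2.33 and 2.31, and the 20 hepatocyte genes to 185 and 201 against 180 and 181. The 13 erythroid genes, of which 4 to 7 were at 0 in each library, summed to 37.9 and 36.5 against 24.6 and 21.8, and the 11 bile duct genes to 9.19 and 10 against 15.1 and 15.5. Sums over the 16 lymphocyte genes stayed at or under 4.39 RPKM and those over the 14 neutrophil and mast cell genes at or under 8.69. In such bulk samples, fewer cells of a type and less RNA per cell cannot be told apart.

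Runx1 (ENSMUSG00000022952, chromosome 16, 92601466 to 92826074, GRCm38.p6) stood at 1.19 and 1.53 RPKM in the Ctrl libraries and at 78.1 and 78.4 in the 2Runx1 libraries. The groups lay far apart, 57.6-fold, and the log2 difference on the log2(RPKM + 1) scale was 5.07 ± 0.10 (standard error, n = 2 and 2, adjusted p = 7.88e-10, limma with Benjamini-Hochberg adjustment). The table does not separate knock-in from endogenous transcripts. Cbfb, which encodes the partner of RUNX1, rose from 34.4 and 33 to 46.8 and 46.9 RPKM, a log2 difference of 0.46 ± 0.06 (adjusted p = 0.000396). Its 2Runx1 libraries both lay above its Ctrl libraries. Runx2 and Runx3, the other genes of the family, stayed at or under 0.044 RPKM in all 4 libraries and were not tested.

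The response was broad. Of 12546 genes tested, 2149 were higher in 2Runx1 (17.1%) and 1021 lower (8.14%), together 25.3%, and the median log2 difference of all genes was 0.02. Of the called genes 67.8% were higher, and 54.5% with quantile normalization, which moved the median of all genes to −0.03. Changes of at least 1 log2 unit were called for 255 genes upwards and 38 downwards. The calls numbered 2019 without Ctrl replicate 1, 2185 without Ctrl replicate 2, 1978 without 2Runx1 replicate 1 and 2027 without 2Runx1 replicate 2, and 1549 of the 3170 held in all 4 of those fits. Genes whose 2 libraries of a group lay beyond both of the other made up 66% of all genes tested, so separation of the groups alone carries little weight here. The spread was small: the log2 difference between the replicates of a group had an SD of 0.155 in Ctrl and 0.15 in 2Runx1.

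**Figure D1:**
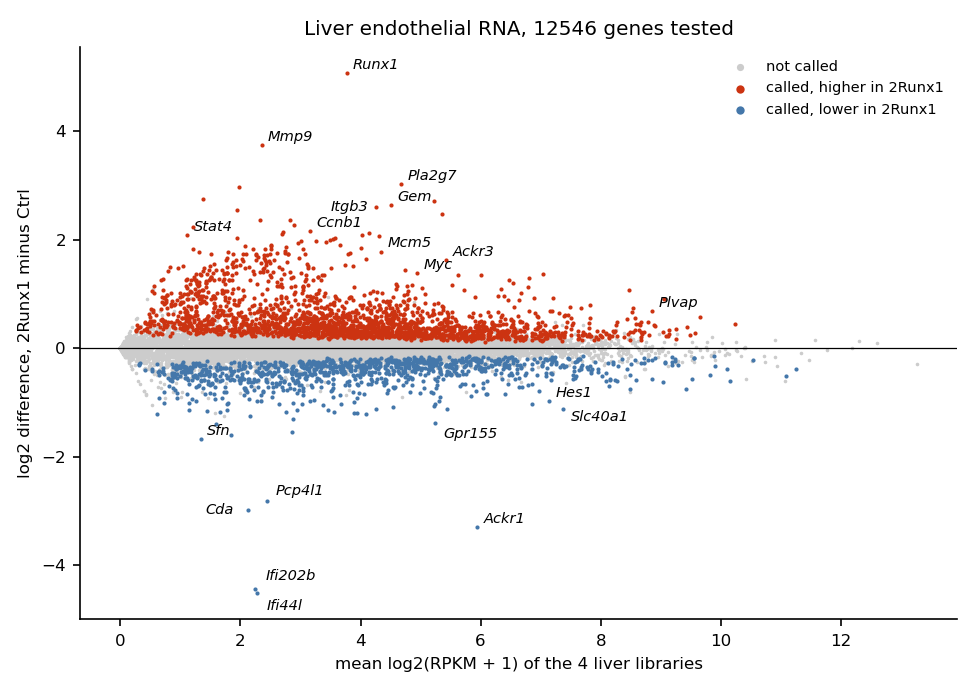
Log2 difference of each gene between liver 2Runx1 and Ctrl (y axis) against its mean log2(RPKM + 1) over the 4 liver libraries (x axis), 1 point a gene. Called genes (adjusted p under 0.05) are red where higher and blue where lower; Runx1 stands at 5.07 and Ifi44l at −4.51, and strong increases outnumber strong decreases, 255 to 38.

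The 15 largest increases held lipid mediator, thrombin and integrin genes. Pla2g7, a secreted enzyme that inactivates platelet-activating factor, was at 7.91 and 8.1 RPKM in Ctrl and at 71.8 and 72.2 in 2Runx1, a log2 difference of 3.02 ± 0.16 (adjusted p = 4.13e-07). Mmp9, a gelatinase that degrades matrix, was nearly silent in Ctrl (0.433 and 0.362 RPKM) and reached 19.2 and 16.3 RPKM. Its log2 difference of 3.74 ± 0.58 (adjusted p = 0.000833) had the widest error among these genes and was not called with limma-voom on recovered reads (5.47, adjusted p = 0.108). Itgb3, the β3 chain of the vitronectin and fibrinogen receptors, rose from 6.57 and 7.06 to 48.2 and 44.4 RPKM (2.60 ± 0.11, adjusted p = 8.73e-08). F2rl3, which encodes the thrombin receptor PAR4, rose from 0.548 and 0.622 to 8.96 and 7.68 RPKM (2.55 ± 0.08, adjusted p = 2.49e-08). In each of these 4 genes the groups did not overlap and differed by far more than their replicates.

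Further large increases fell on signalling and membrane proteins. Gem, a small GTPase that acts on calcium channels and the cytoskeleton, went from 7.62 and 8.7 to 56.8 and 55.2 RPKM (2.64 ± 0.09). Tubb6, a β-tubulin, reached 96 and 93 RPKM, 6.99-fold the Ctrl mean (2.72 ± 0.05), with the narrowest error of the 15. Gdpd3, a lysophospholipase D, went from 0.497 and 0.312 to 9.22 and 10.8 RPKM (2.97 ± 0.10). Pilra, an inhibitory immune-type receptor, rose by 2.37 ± 0.15, the membrane protein gene Plp2 by 2.27 ± 0.10 and the cyclin gene Ccnb1 by 2.16 ± 0.07. D17H6S56E-5 (2.48 ± 0.11) and Ndufs5-ps (2.37 ± 0.11) complete the set with Trim12a and Trim30d, described with their locus below; Ndufs5-ps is listed as a pseudogene, and its reads are uncertain for that reason.

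**Figure D2:**
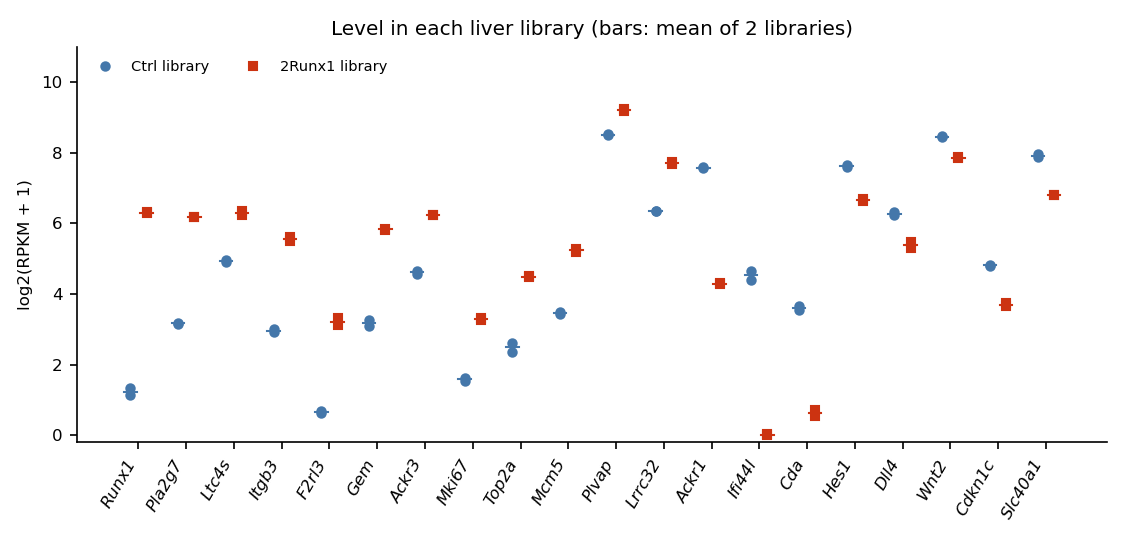
Levels of 20 genes in the 4 liver RNA libraries as log2(RPKM + 1) (y axis); blue circles are Ctrl and red squares 2Runx1 libraries, and bars are the means of 2 libraries. In all 20 genes the replicates of a group lie close together and the 2 groups do not overlap; Ifi44l falls to 0.0217 and 0 RPKM.

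Among the largest decreases, some transcripts were all but lost. Ifi44l, an interferon-induced gene, stood at 19.9 and 24.4 RPKM in Ctrl and at 0.0217 and 0 in 2Runx1, where 1 read was left in both libraries together (log2 difference −4.51 ± 0.11, adjusted p = 2.51e-09). Ifi202b, an interferon-activated gene, went from 19.8 and 22.3 to 0.0311 and 0.0173 RPKM (−4.43 ± 0.13, adjusted p = 1.09e-08). Ackr1, a decoy receptor that venular endothelium uses to bind chemokines, went from 188 and 194 to 18.3 and 19 RPKM, a 10.2-fold difference (−3.29 ± 0.19, adjusted p = 8.04e-07). Of the genes in this set it had the highest level in Ctrl. Cda, cytidine deaminase, fell from 11.7 and 10.7 to 0.448 and 0.652 RPKM (−2.98 ± 0.24), and Pcp4l1 from 13.3 and 13.7 to 0.851 and 1.28 (−2.82 ± 0.14). Smaller decreases were those of Sfn, which encodes stratifin (−1.68 ± 0.09), Mctp1 (−1.59 ± 0.09), the mediator subunit gene Med18 (−1.39 ± 0.14) and Gpr155 (−1.38 ± 0.10). Fosb, a subunit of the AP-1 factor (−1.31 ± 0.21), Calr3 (−1.24 ± 0.13), Ccdc28b (−1.22 ± 0.10) and the lipogenic gene Thrsp (−1.2 ± 0.10) followed. The pseudogene Hmga2-ps1 (−1.54 ± 0.35, adjusted p = 0.0092) was not called without Ctrl replicate 1, 2Runx1 replicate 1 or 2Runx1 replicate 2 (adjusted p = 0.058, 0.0564 and 0.0543), and 1 unnamed gene model among the 15 is not described.

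Several of these genes sit together on the genome. Ifi202b, Ackr1, Pcp4l1 and Slamf1 (1.1 and 1.62 to 0.186 and 0.153 RPKM, −1 ± 0.11) span 171173264 to 173982844 on chromosome 1, where 15 of 47 genes tested were called (31.9%, against 25.3% of all genes), 9 higher and 6 lower, and these 4 fell by at least 1 log2 unit. On chromosome 7, between 104263386 and 104507853, 5 of 6 genes tested were called (83.3%), 3 higher and 2 lower. Trim12a there was at 0 in both Ctrl libraries and at 5.85 and 5.51 RPKM in 2Runx1, at least 141-fold higher against a floor of 3 reads per library (0.0403 RPKM). Trim30d went from 0.0665 and 0.0645 to 3.98 and 4.11 RPKM (2.24 ± 0.09) and Trim5 from 0.0876 and 0.0243 to 1.86 and 2.09 (1.49 ± 0.10), while Trim34b fell from 9.11 and 9.21 to 3.53 and 3.44 (−1.18 ± 0.17). These Trim genes are close copies of each other, so reads may be assigned to the wrong copy. Both intervals were drawn around these genes after their values were seen, so these genes are counted in the shares. The labels give the same mixed strain for both groups and no haplotype for any library, so strain of origin at these loci and genotype cannot be told apart.

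Cell division genes rose together. All 22 genes of the mitosis list and all 22 of the DNA replication and S phase list were higher in 2Runx1, with median log2 differences of 1.71 and 1.18 against 0.02 over all genes, of which 17.1% were higher. All these calls held in each of the 11 alternative fits, and the medians were 1.56 and 1.05 with quantile normalization. Mki67, the proliferation marker, went from 1.9 and 2.1 to 8.6 and 8.94 RPKM (1.71 ± 0.06, adjusted p = 4.03e-08). Top2a, the topoisomerase that untangles chromosomes, went from 4.16 and 5.09 to 21.2 and 21.7 (2.00 ± 0.07), and Ube2c, which with Cdc20 marks mitotic proteins for destruction, from 7.61 and 7.35 to 33.3 and 38.4 (2.12 ± 0.10). In all 3 the lowest 2Runx1 library was well above the highest Ctrl library. The smallest difference in the mitosis list was 1.01 ± 0.09, for the spindle checkpoint kinase Bub1b.

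The replication genes covered licensing, nucleotide supply and the polymerases. Mcm5 and Mcm7, subunits of the replicative helicase, rose from 10.2 and 9.76 to 37.7 and 35.8 RPKM (1.78 ± 0.08) and from 8.07 and 6.91 to 29.9 and 28.9 (1.84 ± 0.10). Rrm2, the limiting subunit of ribonucleotide reductase, rose from 3.01 and 3.1 to 14.5 and 15.5 RPKM (1.98 ± 0.05, adjusted p = 8.94e-09), which was the largest difference of this list. Pcna, the sliding clamp, had the smallest, from 66.3 and 63.3 to 82 and 87.1 RPKM (0.38 ± 0.05, adjusted p = 0.000178). Myc, a growth factor-induced driver of cell growth, rose from 17.3 and 18.7 to 50.3 and 47.4 RPKM (1.39 ± 0.11, adjusted p = 8.38e-06). Cdkn1c, the cell cycle inhibitor p57, fell from 27.2 and 26.9 to 12.3 and 11.6 RPKM (−1.11 ± 0.14, adjusted p = 0.00018). Cdkn1a, the p53-induced inhibitor p21, was at 60.3 and 61.3 RPKM against 52.3 and 53.6 and was not called (−0.20, 95% interval −0.46 to 0.07, adjusted p = 0.274). Trp53 itself rose from 46 and 45.1 to 73.2 and 71 RPKM (0.65 ± 0.07). Of 18 genes of the p53 list 2 were higher and 1 lower (median 0.01), where 17.1% of all genes were higher and 8.14% lower.

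The rise still left division genes far below embryonic levels. The summed level of the mitosis list was 77.5 and 79 RPKM in liver Ctrl, 300 to 314 in liver 2Runx1, 1194 in E13.5 Ctrl and 1630 to 1637 in E9.5 Ctrl. The replication list summed to 244 to 252, 505 to 520, 1107 and 1647 to 1673 RPKM in the same order. In the E13.5 fetus with 2 added copies, neither list had a called gene and both medians were 0.04, against a single Ctrl library and where 0.271% of all genes were called. Runx1 itself was lower there, at 22.7 and 25.2 RPKM in E13.5 2Runx1 against 78.1 and 78.4 in liver 2Runx1. The part of Runx1 level in this contrast was not tested. For all 22 genes of each list the liver difference exceeded that at E13.5 in the test of the difference itself. In the same 2Runx1 libraries the mean log2 level of the stellate list was lower than in Ctrl, those of the leukocyte and bile duct lists were higher (2.33 and 2.31 against 2.14 and 2.2 for leukocytes, 0.9 and 0.92 against 0.64 and 0.68 for bile duct) and that of the macrophage list was about equal. The part of those cells in the division genes was not tested.

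**Figure D3:**
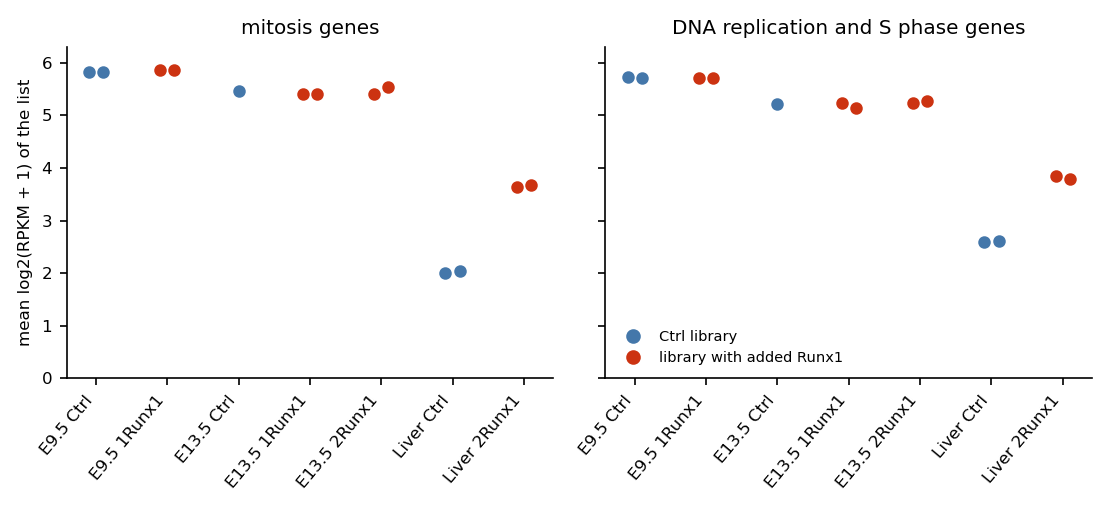
Mean log2(RPKM + 1) of the 22 mitosis genes (left) and the 22 replication genes (right) in each of the 13 RNA libraries of the series, by group, 1 point a library. Liver 2Runx1 libraries lie above liver Ctrl (3.63 and 3.68 against 2.01 and 2.04 for mitosis) and below every embryonic library.

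The promoters of these genes were searched for sequence elements known for cell cycle genes, and some are shown because these members moved together. The elements are the CCAAT box (CCAAT, bound by NF-Y), the cell cycle genes homology region or CHR (TTTGAA, bound by the MuvB complex) and the E2F site (TTTCCCGC, TTTCGCGC, TTTGCCGC or TTTGGCGC), each searched on both strands in RefSeq windows of GRCm38.p6 from 250 bases before to 50 after a start site. Of 18 mitosis genes with a window, 15 held a CCAAT box (83.3%) and 13 a CHR (72.2%), against 43.2% and 14.4% of the 9852 tested genes with a window. An E2F site was in 8 of 17 replication genes (47.1%) and 1 of 18 mitosis genes (5.56%), against 4.87% of tested genes. Of the 17 replication genes, 10 held a CCAAT box (58.8%) and 2 a CHR (11.8%). Among all 32851 windows the shares were 37.4% for the CCAAT box, 17.9% for CHR and 2.26% for E2F. These 3 elements were chosen after the values were seen, and a match is a description of letters and not of binding. The 250 bases before the start site follow, 5′ to 3′ on the gene's strand, with matches in capitals. Top2a holds 6 CCAAT boxes and 2 CHR, Ube2c 6 and 1, Cdc20 2 and 1. Mcm5 holds 2 overlapping E2F sites and Mcm7 1, each beside 2 CCAAT boxes. Another start site of Mcm7, not shown, has 1 CCAAT box and neither a CHR nor an E2F site before it.
Top2a (chr11:99024190-99024439, minus strand): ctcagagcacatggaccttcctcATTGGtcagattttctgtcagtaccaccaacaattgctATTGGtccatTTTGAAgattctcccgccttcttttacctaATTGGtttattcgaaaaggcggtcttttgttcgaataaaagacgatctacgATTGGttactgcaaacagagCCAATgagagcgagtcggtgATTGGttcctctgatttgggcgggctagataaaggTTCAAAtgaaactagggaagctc
Ube2c (chr2:164769679-164769928, plus strand): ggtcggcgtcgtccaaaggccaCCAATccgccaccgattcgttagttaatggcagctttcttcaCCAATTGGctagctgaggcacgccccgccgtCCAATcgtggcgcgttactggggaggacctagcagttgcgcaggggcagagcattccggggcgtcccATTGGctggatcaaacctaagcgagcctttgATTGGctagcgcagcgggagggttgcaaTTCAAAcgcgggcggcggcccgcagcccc
Cdc20 (chr4:118437344-118437593, minus strand): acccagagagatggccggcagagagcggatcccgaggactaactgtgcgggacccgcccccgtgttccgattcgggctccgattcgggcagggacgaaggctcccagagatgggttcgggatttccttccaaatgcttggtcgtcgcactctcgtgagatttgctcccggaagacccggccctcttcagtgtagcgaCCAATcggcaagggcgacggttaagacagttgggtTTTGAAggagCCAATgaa
Mcm5 (chr8:75109259-75109508, plus strand): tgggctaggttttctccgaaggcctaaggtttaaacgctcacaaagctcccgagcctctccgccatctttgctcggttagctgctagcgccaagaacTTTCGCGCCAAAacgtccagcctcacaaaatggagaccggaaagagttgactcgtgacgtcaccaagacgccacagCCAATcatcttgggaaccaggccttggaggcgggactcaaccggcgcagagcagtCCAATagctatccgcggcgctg
Mcm7 (chr5:138171884-138172133, minus strand): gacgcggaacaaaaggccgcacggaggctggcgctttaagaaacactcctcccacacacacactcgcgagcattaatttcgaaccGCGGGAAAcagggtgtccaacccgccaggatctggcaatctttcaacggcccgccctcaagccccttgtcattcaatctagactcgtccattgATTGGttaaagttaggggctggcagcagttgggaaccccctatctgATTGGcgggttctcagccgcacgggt
The promoter windows of these 5 genes were in ATAC peaks of both liver groups. Over the mitosis and replication lists, 31 of 35 genes with a window had a peak there in both lists (88.6%), against 78.7% of tested genes.

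Components of the TGFβ pathway were called about as often as all genes. The pathway signals from latent ligands through receptors to SMAD factors and restrains growth of endothelial cells. Of 25 ligand, receptor, binder and SMAD genes tested, 5 were higher and 1 lower, with a median of 0.09 against 0.02 over all genes, of which 25.3% were called. Tgfb3, a ligand, rose from 0.471 and 0.671 to 3.76 and 3.04 RPKM (1.48 ± 0.12, adjusted p = 1.04e-05). Lrrc32, known as GARP, which holds latent TGFβ at the cell surface, rose from 81.3 and 81.1 to 214 and 205 RPKM (1.36 ± 0.22, adjusted p = 0.00103). The latent ligand binder Ltbp3 rose by 0.62 ± 0.10 from a low level. The receptor gene Tgfbr2 (180 and 164 against 183 and 168 RPKM) overlapped between groups, with a 95% interval of the log2 difference of −0.13 to 0.19.

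Known targets of TGFβ did not move as 1 group. Of 25 tested, 4 were higher and 4 lower, with a median of 0.02, against 17.1% and 8.14% of all genes higher and lower. Mmp9 and Cdkn1c, given above, were the extremes, and Hbegf, an EGF receptor ligand, fell from 63 and 63.1 to 41.4 and 48.6 RPKM (−0.48 ± 0.07, adjusted p = 0.000666). Of the 8 calls, 3 held in every fit that left out a library. Smad7, the inhibitory SMAD induced by the pathway, was at 24.6 and 24.5 RPKM against 22.4 and 23.1 (−0.11, interval −0.44 to 0.22). Of 12 BMP targets 3 were lower and none higher; Bmper, a BMP-binding protein, fell from 5.69 and 6.06 to 2.74 and 3.18 RPKM (−0.80 ± 0.09, adjusted p = 0.000134).

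Endothelial identity genes were called in both directions. Of 26 identity genes, 5 were higher and 7 lower (median −0.10), against 17.1% and 8.14% of all genes, and all were detected in all 4 libraries. Erg, an ETS factor that maintains endothelial fate, fell from 23.3 and 22.3 to 13.6 and 15.1 RPKM (−0.63 ± 0.07, adjusted p = 0.000118), Sox17, an arterial SoxF factor, from 33 and 29.6 to 21.7 and 21 (−0.53 ± 0.09), and Ets1 from 256 and 236 to 199 and 189 (−0.34 ± 0.06). Plvap, which forms the diaphragms of fenestrae, rose from 363 and 367 to 600 and 580 RPKM (0.69 ± 0.06, adjusted p = 2.51e-05). The adhesion gene Icam2 rose by 0.34 ± 0.04 and Cdh5, encoding VE-cadherin, by 0.25 ± 0.05. Of 22 sinusoidal genes none was higher and 3 were lower: Ctsl, a lysosomal protease, fell from 872 and 916 to 594 and 611 RPKM (−0.57 ± 0.05) and Clec1b, the podoplanin receptor, from 280 and 294 to 210 and 216 (−0.43 ± 0.05). The other, Cd209b (−0.31 ± 0.09), lost its call without Ctrl replicate 2, 2Runx1 replicate 1 or 2Runx1 replicate 2 (adjusted p = 0.217, 0.13 and 0.105). The scavenger receptor genes Stab2 (828 and 705 against 831 and 729 RPKM) and Stab1 (481 and 444 against 452 and 402) overlapped between groups.

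Genes of the portal and arterial side fell more often than they rose. Of 12 portal zone genes 7 were lower and none higher (median −0.38), and of 18 arterial genes 8 were lower and 1 higher (median −0.25), against 8.14% of all genes lower. Leaving out single libraries kept 3 and 6 of these calls. Dll4, the arterial Notch ligand, fell from 78.4 and 74.4 to 43.2 and 38.8 RPKM (−0.88 ± 0.12, adjusted p = 0.000335), and Efnb2, the arterial ephrin ligand, from 25.9 and 23.4 to 16.1 and 15.2 (−0.62 ± 0.11). Gja4, a gap junction connexin, fell from 368 and 375 to 248 and 244 RPKM (−0.59 ± 0.07), the guidance receptor Nrp1 from 650 and 643 to 534 and 518 (−0.30 ± 0.05) and the lymphatic growth factor Vegfc from 5.93 and 5.65 to 2.24 and 2.66 (−0.98 ± 0.10). In each of these 5 genes both 2Runx1 libraries lay below both Ctrl libraries, where 66% of all genes had groups that did not overlap. Hes1, a Notch target, fell from 202 and 194 to 97.7 and 102 RPKM (−0.98 ± 0.10, adjusted p = 6.38e-05), but Nrarp, a feedback inhibitor induced by Notch, rose from 20.8 and 19 to 35.5 and 31.6 (0.72 ± 0.10). The Notch list as a whole had 2 higher and 2 lower of 17 (median 0), and Notch1 was at 31.3 and 28.9 against 30 and 28.8 RPKM.

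The signals that liver endothelium sends to hepatocytes changed in both directions, where 17.1% of all genes were higher and 8.14% lower. Of 15 angiocrine genes 3 were higher and 6 lower (median −0.27), of which 4 calls held without single libraries. Wnt2, a central vein Wnt ligand for hepatocytes, fell from 353 and 347 to 234 and 231 RPKM (−0.59 ± 0.10, adjusted p = 0.00138), and Dkk3 from 20.6 and 19.2 to 9.13 and 9.85 (−0.99 ± 0.12). Rspo3, which amplifies Wnt signals in the same zone, rose from 51.7 and 53 to 69.5 and 78.3 RPKM (0.49 ± 0.08, adjusted p = 0.00121). Both genes separated the groups, in opposite directions. The 12 central vein genes, which include Ackr1, had 3 higher and 4 lower (median −0.15).

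Within the VEGF and angiopoietin list 3 of 17 were higher and 7 lower (median −0.18), against 17.1% and 8.14% of all genes. Angpt2, the vessel-destabilizing angiopoietin, fell from 13.8 and 14.2 to 8.04 and 7.55 RPKM (−0.77 ± 0.11). Apln, a tip cell peptide, rose from 1.24 and 1.82 to 4.04 and 4.65 RPKM (1.09 ± 0.12) and Angptl4, a lipoprotein lipase inhibitor, from 2.12 and 2.16 to 7.66 and 7.88 (1.48 ± 0.15, adjusted p = 5.75e-05). These 3 kept their calls without any single library.

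The called leukotriene and thrombin genes were all higher, but the share called was near that of all genes, 25.3%. Over all genes 17.1% were higher and 8.14% lower. Of 14 enzymes of leukotriene, prostaglandin and platelet-activating factor metabolism 4 were higher and none lower (median 0.15). Besides Pla2g7, Ltc4s, the synthase of leukotriene C4, rose from 29.3 and 30.4 to 74 and 80.4 RPKM (1.34 ± 0.14, adjusted p = 7.14e-05) and Lta4h, which makes leukotriene B4, from 55.9 and 58.1 to 73 and 68.9 (0.31 ± 0.05). Alox5, the 5-lipoxygenase that supplies both enzymes, stayed at or under 0.079 RPKM and was not called (0.09, interval −0.17 to 0.35). Of 14 coagulation and thrombin receptor genes 4 were higher and none lower (median 0.07), and all 4 calls held without single libraries: F2rl3, given above, F2r, which encodes the thrombin receptor PAR1 (356 and 326 to 461 and 463 RPKM, 0.44 ± 0.09), the urokinase gene Plau (2.32 and 2.56 to 4.47 and 4.98, 0.73 ± 0.12) and Anxa2, a plasmin-activating annexin (290 and 292 to 468 and 454, 0.66 ± 0.09). Of 15 integrin subunits 5 were higher and 1 lower (median 0), among them Itga6, a laminin receptor chain, which rose from 19.6 and 17.3 to 31.3 and 29.1 RPKM (0.69 ± 0.07).

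Genes for leukocyte traffic moved both ways, where 17.1% of all genes were higher and 8.14% lower. Of 16 leukocyte adhesion genes 4 were higher and 3 lower (median 0.01), and all 7 calls held without single libraries. Icam1, the ligand of leukocyte β2 integrins, fell from 145 and 142 to 93.1 and 89.1 RPKM (−0.65 ± 0.08, adjusted p = 0.000146), and Clec14a, an endothelial lectin, from 339 and 330 to 221 and 216 (−0.61 ± 0.05). The junctional adhesion genes Jam2 and Jam3 rose by 0.42 ± 0.07 and 0.58 ± 0.07. Of 18 chemokine and receptor genes 2 were higher and 4 lower (median −0.13). The 2 that rose are atypical, scavenging receptors: Ackr3, which clears CXCL12, went from 22.9 and 24.1 to 74.6 and 74 RPKM (1.62 ± 0.14, adjusted p = 1.23e-05), and Ackr4, which clears CCL19 and CCL21, from 37.2 and 33.9 to 78.6 and 72.8 (1.07 ± 0.09). Ackr1, of the same receptor class, was among the largest decreases.

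Inflammatory regulators moved in both directions, where 17.1% of all genes were higher and 8.14% lower. Of 21 NF-κB genes 3 were higher and 5 lower (median −0.08). Nfkb1, a subunit of the factor, rose from 31.7 and 31.6 to 53.2 and 51.2 RPKM (0.70 ± 0.08), while Nfkbia, its induced inhibitor, fell from 340 and 354 to 226 and 241 (−0.57 ± 0.06) and the inhibitor of apoptosis gene Birc3 fell by 0.63 ± 0.12. Of 26 interferon-stimulated genes 1 was higher and 7 lower (median −0.09). Rsad2, an antiviral enzyme, fell from 33.8 and 37 to 22.9 and 21 RPKM (−0.67 ± 0.10) and the GTPase gene Gbp4 by 0.68 ± 0.13. The increase was Stat4, a cytokine signal transducer known from lymphocytes, from 0.0198 and 0.0865 to 3.36 and 3.54 RPKM (2.08 ± 0.09, adjusted p = 1.42e-07).

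Immediate early genes respond within minutes to growth factors and to tissue handling. Among 18 tested, 9 were lower and 1 higher (median −0.43), against 8.14% and 17.1% of all genes. Of the 10 calls 4 held without single libraries: Dusp1, a MAP kinase phosphatase, fell from 1416 and 1401 to 907 and 936 RPKM (−0.61 ± 0.11, adjusted p = 0.00184), Ier2 from 160 and 164 to 110 and 115 (−0.52 ± 0.08), Fosb as given above, and Myc rose. Handling times are not given for any library, and their part in these values was not tested.

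Blood genes were called in both directions. Of 15 hemogenic and stem cell regulators, 2 were higher and 1 lower (median 0.07), where 25.3% of all genes were called: Gata2 at 22.5 and 20.1 against 27.3 and 26.8 RPKM (0.34 ± 0.09, adjusted p = 0.0188), Meis1 (0.25 ± 0.08) and Mecom (−0.32 ± 0.10). None of the 3 calls held throughout: Gata2 had adjusted p = 0.137, 0.0992 and 0.0757 without Ctrl replicate 2, 2Runx1 replicate 1 and 2Runx1 replicate 2, Meis1 had 0.0976, 0.188, 0.192 and 0.109 without each library in turn, and Mecom had 0.327, 0.106 and 0.198 without Ctrl replicate 1 and the 2 2Runx1 libraries. Spi1, the myeloid master regulator PU.1, overlapped between groups (1.46 and 1.75 against 2.3 and 1.47 RPKM), and Gfi1b, a repressor of the endothelial programme in emerging blood cells, had reads in 1 library only, at 0.017 RPKM. Of 15 leukocyte genes 3 were higher and 2, Arhgdib and Cd52, were lower (median 0.14, lowest log2 difference −0.59). The adaptor gene Dok2 rose from 0.673 and 0.706 to 3.82 and 2.91 RPKM (1.36 ± 0.14, adjusted p = 6.41e-05) and the cytoskeletal regulator gene Was from 0.641 and 0.911 to 2.45 and 2.99 (1.07 ± 0.16). In 2Runx1 the summed leukocyte level was lower and its mean log2 higher than in Ctrl, as given above.

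Markers of neighbouring liver cells were called in both directions. Of 18 macrophage genes 2 were higher and 3 lower, against 25.3% of all genes called, with a median of 0.09 and 13 members above 0. The largest decreases were those of 2 abundant genes: Slc40a1, the iron exporter ferroportin, fell from 248 and 235 to 110 and 112 RPKM (−1.11 ± 0.16, adjusted p = 0.000518) and C1qb, a complement chain, from 56.4 and 53.1 to 27 and 27.4 (−0.98 ± 0.07). The third, Marco (−0.43 ± 0.13), was not called without 2Runx1 replicate 1 (adjusted p = 0.255), Ctrl replicate 1 (0.13) or Ctrl replicate 2 (0.121). The increases were Clec4f, a Kupffer cell lectin (0.36 ± 0.08), and the lysosomal protease gene Ctss (0.43 ± 0.13); Clec4f was not called without 2Runx1 replicate 1 (adjusted p = 0.0561), and Ctss in none of the 4 fits without a library (adjusted p = 0.11 to 0.128). The macrophage gene Adgre1 was at 3.33 and 3.97 against 4.52 and 4.49 RPKM and not called. C1qa and C1qc, the other complement C1q chains of the list, were not called either. Of 15 stellate and mesenchymal genes 4 were lower and none higher (median −0.27), among them Colec11 from 9.85 and 11.5 to 4.39 and 5.02 RPKM (−1.03 ± 0.14) and the retinol-storing enzyme gene Lrat from 4.01 and 2.81 to 1.8 and 1.26 (−0.80 ± 0.14). The 8 bile duct genes had no call, with a median of 0.29. The part of these cells in other results was not tested.

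Most called ribosomal protein genes were higher, by small amounts, and glycolytic genes were called in both directions. Of 20 cytosolic ribosomal protein genes 13 were higher and 1 lower (median 0.20), with 7 calls held without single libraries and differences of at most 0.53. Rpl10a rose from 38.8 and 38.7 to 56.9 and 55.9 RPKM (0.53 ± 0.05). Of 20 glycolysis and hypoxia genes 8 were higher and 4 lower (median 0.07), against 17.1% and 8.14% of all genes, and 5 of the higher and none of the lower calls held without single libraries; Eno1, enolase, rose from 142 and 140 to 222 and 212 RPKM (0.62 ± 0.05) and Ldha, lactate dehydrogenase, from 289 and 284 to 423 and 406 (0.53 ± 0.05). Of 20 oxidative phosphorylation subunits 4 were higher and 1 lower (median 0.02).

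Matrix, junction and mesenchymal genes moved in both directions, where 17.1% of all genes were higher and 8.14% lower. The matrix list had 4 higher and 4 lower of 24 (median 0.02); Nid2, a basement membrane protein gene, rose from 11.1 and 10 to 16.2 and 15.3 RPKM (0.53 ± 0.09), and Lamb1, a laminin chain, fell from 1.04 and 1.15 to 0.425 and 0.462 RPKM (−0.54 ± 0.08). The list of genes of the endothelial to mesenchymal transition had 2 higher and 2 lower of 13 (median 0.05). Its increases were Twist1, a mesenchymal transcription factor, from 11.5 and 11.5 to 19.7 and 21.6 RPKM (0.80 ± 0.10), and the intermediate filament gene Vim, from 103 and 107 to 147 and 145 RPKM (0.47 ± 0.05). Among junction genes there were 5 higher and 5 lower of 18 (median −0.01), with Gjc1, a connexin, rising from 1.59 and 2.07 to 4.06 and 3.81 RPKM (0.81 ± 0.10).

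The remaining lists had calls in both directions or few calls, where 17.1% of all genes were higher and 8.14% lower. Sinusoid capillarization genes had 4 higher and 5 lower of 16 (median −0.10), venous genes 3 higher and 1 lower of 12 (median −0.04) and SoxF, ETS, GATA and KLF factors 3 higher and 5 lower of 21 (median 0). Leaving out Ctrl replicate 2 ended all 3 higher calls among these factors, Gata2, Etv6 and Elk3 (adjusted p = 0.137, 0.142 and 0.0571); those of Gata2 and Etv6 were also lost without 2Runx1 replicate 1 (0.0992 and 0.113) or 2Runx1 replicate 2 (0.0757 and 0.0557). Scavenger and endocytic receptors had 1 higher and 3 lower of 17 (median −0.12). MHC class I genes had 2 higher and 0 lower of 17 (median −0.03), both chaperones of antigen loading, Calr (0.42 ± 0.05) and Pdia3 (0.42 ± 0.06). No call was made among 6 MHC class II genes (median 0.17) or 6 Fc receptors (median −0.03). Megakaryocyte genes, which include Itgb3, had 3 higher and 1 lower of 10 (median 0.01), hepatocyte genes 1 higher and 1 lower of 17 (median −0.01) and erythroid genes 0 higher and 2 lower of 9 (median −0.02). Both erythroid calls, Alas2 and Epor, were lost without 2Runx1 replicate 2 (adjusted p = 0.0538 and 0.13) and without Ctrl replicate 1 (0.0582 and 0.101), and that of Epor also without 2Runx1 replicate 1 (0.0549) and Ctrl replicate 2 (0.0778). The 7 neutrophil genes and the 1 lymphocyte gene tested had no call (medians −0.16 and 0.01), and RUNX family and partner genes had 3 higher and 1 lower of 8 (median 0.15).

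**Figure D4:**
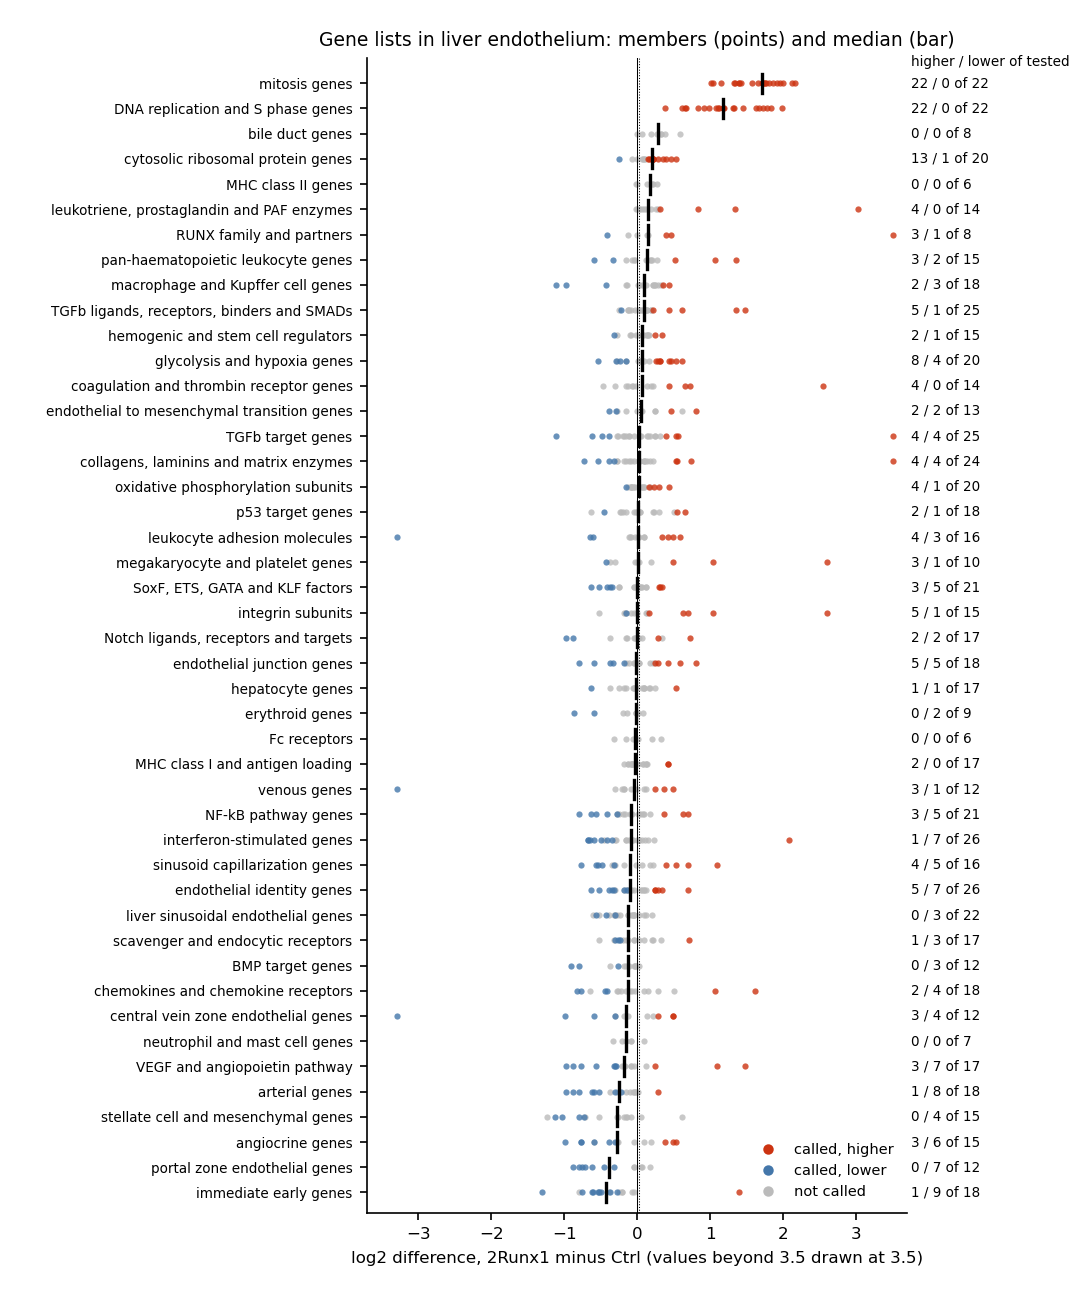
Log2 difference between liver 2Runx1 and Ctrl (x axis) for the tested members of each gene list with at least 5 of them (rows, ordered by the median, black bar), with called genes in red (higher) or blue (lower) and counts at the right. The mitosis and replication lists stand apart with 22 of 22 genes higher each; the dotted line is the median of all genes, 0.02, and values beyond 3.5 are drawn at 3.5.

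The 2 copies added in the E13.5 fetus gave a smaller set of calls, 34 genes (0.271% of those tested), measured against a single Ctrl library. The E13.5 cells were harvested 24 hours after tamoxifen, a time not stated for the liver. In a test of the difference between the liver and E13.5 effects, 1392 genes (11.1%) passed, 1029 with a difference towards higher values in the liver (8.2%) and 363 towards lower (2.89%). Of these 73.9% were towards higher values, and 63.9% with quantile normalization. Without one or the other Ctrl liver library the count was 848 (162 towards lower values) for replicate 1 and 1130 (237) for replicate 2, and without a 2Runx1 library it was 984 (218) for replicate 1 and 811 (164) for replicate 2. Runx1 itself rose more in the liver, by 1.68 ± 0.16 log2 units (adjusted p = 0.000102). The largest liver-weighted gains were those of Pla2g7 (3.09), Gdpd3 (2.90), Zfp429 (2.47), Trim12a (2.44), Tubb6 (2.43) and Rnaset2b (2.41), and the largest in the other direction those of Ifi202b (−4.81), Ifi44l (−4.58), Ackr1 (−3.41), Pcp4l1 (−2.89) and Cda (−2.12). Rnaset2b has a near-identical copy and is uncertain. Of the 34 genes called at E13.5, 15, Runx1 included, were also called in the liver in the same direction and none in the opposite one, which was 44.1% of the E13.5 calls and 0.473% of the liver calls. Of all tested genes 25.3% were called in the liver. Ltc4s (1.5 at E13.5 and 1.34 in the liver), Stat4 (1.94 and 2.08), Med18 (−1.44 and −1.39), C1qb (−1.10 and −0.98) and Dok2 (1.13 and 1.36) were among them and did not pass the test of the difference between the stages, and Gem (0.89 and 2.64), F2rl3 (0.75 and 2.55) and Itgb3 (1.88 and 2.60) did. Cdkn1a (0.83 at E13.5, −0.20 in the liver) and Alox5 (0.93 and 0.09) differed in the other direction, by −1.03 (adjusted p = 0.00639) and −0.84 (adjusted p = 0.0156).

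Open chromatin was compared through 1 peak list per group, which pools its 2 libraries, so no replicate check was possible. The lists were of like size, 39469 peaks in 2Runx1 and 39019 in Ctrl, and most peaks were shared: 27234 of the 2Runx1 peaks overlapped a Ctrl peak by at least 1 base. Found in 1 list only were 12235 2Runx1 peaks (31%) and 11769 Ctrl peaks (30.2%). These were weak peaks: the authors' fold enrichment had a median of 4.1 in 2Runx1-only and 4.52 in Ctrl-only peaks, against 8.21 and 8.58 in overlapping ones. Of 2Runx1 peaks with −log10 q under 2, 91.2% had no Ctrl partner, and of the 2475 peaks at 50 or more, none lacked one. With a −log10 q of at least 5 in both lists, the list-only peaks fell to 3416 (14.1%) and 5453 (20.7%). Of the shared 2Runx1 peaks 92.3% also overlapped a peak of the E13.5 Ctrl list, against 39.1% of the 2Runx1-only peaks and 50.5% of the Ctrl-only peaks.

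**Figure D5:**
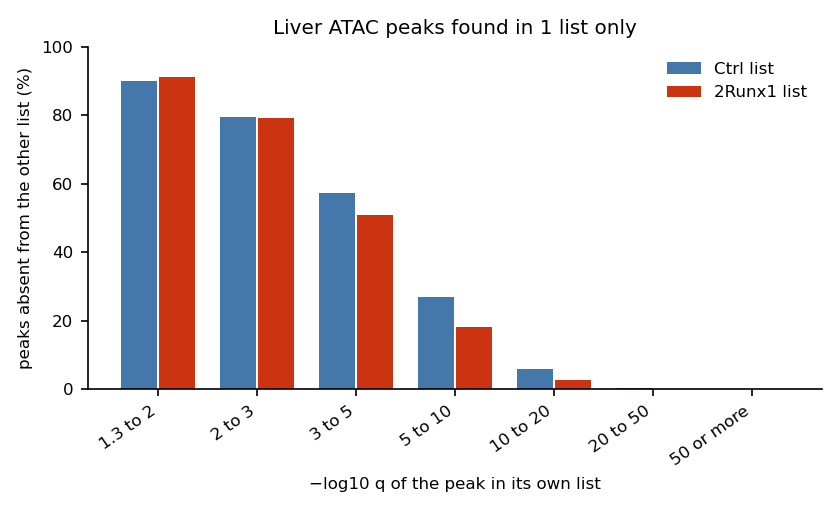
Share of liver ATAC peaks that overlap no peak of the other group's list (y axis, %) by the peak's −log10 q in its own list (x axis, bins), Ctrl in blue and 2Runx1 in red. The share drops from 90% and 91.2% among the weakest peaks to 0.0605% and 0% among the strongest.

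Peaks found in 1 list only were near genes of all kinds. Within 50000 bases of a start site, a 2Runx1-only peak was near 43.8% of higher genes, 49.3% of lower genes and 42.1% of all tested genes with a known start site. For Ctrl-only peaks the shares were 47.3%, 55.9% and 47.6%. Higher genes thus stood near the background in both directions, and lower genes above it for peaks of either list. Promoter windows were in peaks of both lists for 86.1% of higher, 75.5% of lower and 78.7% of all tested genes, and in a 2Runx1-only peak for 1.72% of higher genes against 1.91% of all.

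At single genes, among the 9 of the 15 largest increases with a known start site, the 2Runx1-only peak of highest fold was at F2rl3 (chr8:72761816-72761923, mm10), 234 bases downstream of the start site, with fold 6.4 and −log10 q 6.49, in a gene whose RNA rose from 0.548 and 0.622 to 8.96 and 7.68 RPKM. At Runx1 a Ctrl-only peak lay 1476 bases upstream of a start site (chr16:92698767-92698885, fold 9.47, −log10 q 14.9), while its RNA rose. Ctrl-only peaks also lay within 50000 bases of Ifi44l (chr3:151716410-151716543, fold 9.78), Fosb (chr7:19345249-19345491, fold 7.85), Trim12a (chr7:104352899-104353071, fold 7.61) and Gpr155 (chr2:73419416-73419505, fold 7.24), and 2Runx1-only peaks near Sfn (chr4:133609872-133609981, fold 7.24), Pcp4l1 (chr1:171164395-171164536, fold 6.84) and Ifi202b (chr1:173940470-173940639, fold 5.47). Direction of RNA and list of the peak did not match in several of these: Sfn, Pcp4l1 and Ifi202b fell, and Runx1 and Trim12a rose. Of the 15 largest increases 9 had a known start site, 3 of them with a 2Runx1-only and 7 with a Ctrl-only peak nearby, and of the 15 largest decreases 12 had one, 6 and 8 of them with such peaks. The shares over all tested genes were 42.1% and 47.6%.

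The RUNX motif was about as common at promoters of called genes as at others, a description with no test. TGTGGT, on either strand, was in the windows of 14.8% of higher and 14.9% of lower genes against 14.4% of all tested genes, and in 16.5% of those higher and 20.8% (5 of 24) of those lower by at least 1 log2 unit. ETS (CAGGAAGT) was in 3.78% of higher, 3.76% of lower and 4.02% of all tested genes, AP-1 (TGANTCA) in 4.87%, 7.39% and 5.89%, and SMAD (GTCTAGAC) in 0.343%, 0.13% and 0.264%. The letters AGATAAG, known as the motif of the GATA family of factors, were in 2.29%, 3.5% and 2.43%. Among all 32851 windows the shares were 16.8% for RUNX, 3.33% for ETS, 7.81% for AP-1, 0.213% for SMAD and 3.04% for the GATA family. The promoters of 2 genes that rose are shown as examples of a RUNX match, Ackr3 with its match 84 bases and Pilra with its match 50 bases before the start site, on opposite strands; that of Ackr3 was in peaks of both liver groups and that of Pilra in none.
Ackr3 (chr1:90203730-90203979, plus strand): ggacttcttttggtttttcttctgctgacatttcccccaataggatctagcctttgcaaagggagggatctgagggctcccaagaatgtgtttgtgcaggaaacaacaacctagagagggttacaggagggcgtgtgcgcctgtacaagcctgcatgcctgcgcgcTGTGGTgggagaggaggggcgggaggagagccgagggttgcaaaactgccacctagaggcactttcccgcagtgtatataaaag
Pilra (chr5:137836279-137836528, minus strand): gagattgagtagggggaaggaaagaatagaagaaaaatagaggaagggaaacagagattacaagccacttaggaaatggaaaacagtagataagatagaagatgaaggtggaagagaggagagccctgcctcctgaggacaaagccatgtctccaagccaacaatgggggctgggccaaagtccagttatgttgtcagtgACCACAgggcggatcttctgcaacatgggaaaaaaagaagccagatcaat
The letters were searched in promoter windows only. Peaks away from promoters were not searched, because no genome sequence of this build was used here.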

How the data were processed

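RNA-seq of poly-A RNA (unstranded Nextera XT libraries) and ATAC-seq of sorted endothelial cells were used, 4 liver libraries each. The liver effect was set against 3 E13.5 RNA libraries of Ctrl and 2Runx1. All 13 RNA libraries of the series entered the fit, and E9.5 levels and the E13.5 Ctrl peak list were also compared. Expression values are RPKM that the authors deposited for 25239 genes. Reads were trimmed with Trim Galore 0.6.4, aligned with STAR 2.7.3a or Bowtie2 2.3.5.1 and counted with featureCounts (Subread 2.0.0), per the submitters' processing notes, which also name edgeR, MACS2 2.1.4, deepTools 3.3.0 and the builds mm10 and GRCm38 without saying which step used which. Dividing each RPKM by what 1 read is worth gave whole reads for 100% of 20720 genes above 0 (tolerance 0.001 reads). The smallest whole numbers that match were taken for each gene. The recovered depth therefore covers reads assigned to genes only and may be too low. Peak lists were deposited per group with a fold enrichment (ratio) and a −log10 q for each peak, which are the authors' values.

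The main test was limma 3.58.1 in R 4.3.3 on log2(RPKM + 1), with 7 group means over all 13 RNA libraries, a mean-variance trend and the 12546 genes that reached an RPKM of 1 in 2 or more libraries. Fits had 6 residual and 4.3 prior degrees of freedom. P-values are two-sided and adjusted over all genes by Benjamini-Hochberg, with a threshold of 0.05. Fold changes on this scale understate changes of low genes. The difference between the liver and E13.5 effects was a contrast of the same fit. Named genes were the 15 largest called increases and decreases, the 6 largest differences from E13.5 in each direction, and called members of 46 fixed lists. Members and lists were chosen with earlier results of these data known. Peaks were compared with bedtools 2.31.1, and start sites and promoter sequences are from RefSeq, GRCm38.p6, matched by symbol for 9852 tested genes. The fit was also run on simulated data with the same noise in every gene. That setting is simpler than these data, so it does not test the calls made here. Motifs in peaks were not searched, because no genome sequence was used here. Alternatives were another pseudocount, other filters, liver libraries alone, quantile normalization, limma-voom on recovered reads, a replicate block, and leaving out each liver library.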

Additional observations from a re-analysis of the deposited data

Results flagged for a closer look

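The effect of 2 added copies in the liver differed from their effect at E13.5, by limma's test of the difference itself (adjusted p under 0.05), for 92 of the genes named in the report, 54 with a difference above 0 and 38 below. Over all 12546 tested genes 1392 passed (11.1%). Most genes were named for their liver difference, which is part of the tested difference, and some for this test itself. Their count and signs therefore follow in part from that choice. The value given for each gene is the liver log2 difference minus the E13.5 log2 difference, and the E13.5 Ctrl group is a single library. The 2 stages also differ in age and tissue, which cannot be told apart here. The time from tamoxifen to harvest was 24 hours at E13.5 and is not stated for the liver.

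Among the largest liver increases, the difference was above 0 for Runx1 (1.68), Pla2g7 (3.09), Gdpd3 (2.90), Trim12a (2.44), Tubb6 (2.43), Gem (1.75), Itgb3 (0.72), F2rl3 (1.80), D17H6S56E-5 (2.06), Ndufs5-ps (2.40), Pilra (1.52), Plp2 (1.88), Trim30d (2.25) and Ccnb1 (2.09), and also for Zfp429 (2.47), Rnaset2b (2.41) and Trim5 (1.46). Among the largest decreases it was below 0 for Ifi44l (−4.58), Ifi202b (−4.81), Ackr1 (−3.41), Cda (−2.12), Pcp4l1 (−2.89), Sfn (−1.36), Mctp1 (−1.55), Gpr155 (−1.42), Calr3 (−1.35), Ccdc28b (−1.06) and Thrsp (−1.06), and also for Slamf1 (−0.92) and Trim34b (−0.94).

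Genes of division and growth were all above 0: Mki67 (1.85), Top2a (1.99), Ube2c (2.12), Cdc20 (1.45), Bub1b (0.76), Mcm5 (1.67), Mcm7 (1.63), Rrm2 (2.04), Pcna (0.36), Myc (1.22) and Trp53 (0.45). The cell cycle inhibitors Cdkn1a (−1.03) and Cdkn1c (−0.99) were below 0.

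Endothelial regulators and surface genes lay on both sides. Below 0 were Erg (−0.58), Ets1 (−0.36), Sox17 (−0.52), Dll4 (−0.74), Hes1 (−0.78), Gja4 (−0.68), Nrp1 (−0.27), Vegfc (−1.08), Angpt2 (−1.06), Wnt2 (−0.74), Dkk3 (−0.82), Clec14a (−0.34) and Clec1b (−0.41). Above 0 were Plvap (0.79), Icam2 (0.27), Itga6 (0.62), Jam2 (0.44), Jam3 (0.59), Gjc1 (0.87), Nrarp (0.78), Apln (1.00), Angptl4 (1.29), Ackr3 (1.39), Ackr4 (0.75), F2r (0.54), Plau (0.88) and Anxa2 (0.74).

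Signalling, matrix and inflammatory genes above 0 were Cbfb (0.55), Tgfb3 (1.03), Nfkb1 (0.78), Twist1 (0.91) and Vim (0.38), and those below 0 were Hbegf (−0.48), Bmper (−0.64), Nfkbia (−0.68), Rsad2 (−0.85), Ier2 (−0.52), Lamb1 (−0.66) and Alox5 (−0.84). Metabolic, ribosomal and chaperone genes above 0 were Eno1 (0.48), Ldha (0.47), Rpl10a (0.50), Calr (0.48) and Pdia3 (0.67). Of the markers of other liver cells, Adgre1 (0.62) and Ctss (0.90) were above 0, and Slc40a1 (−1.24), Colec11 (−1.20) and Lrat (−0.91) were below.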

How the results depend on the processing

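The liver calls numbered 2766 to 3316 under the 7 alternatives that kept all libraries, against 3170, and 1978 to 2185 with 1 liver library left out, 1436 to 1613 of them higher and 505 to 572 lower. Differences from E13.5 numbered 811 to 1130 in those leave-out fits, 647 to 893 towards higher and 162 to 237 towards lower values, against 1392, 1029 and 363; fewer samples enter such fits. Of 256 called genes in the lists and among the named genes, 163 held in all 4 leave-out fits and none reversed under any alternative. Among uncalled genes, all still uncalled, the sign of the log2 difference depended on the library left out: the range was −0.09 to 0.03 for Notch1, −0.07 to 0.34 for Spi1, −0.09 to 0.14 for Stab2 and −0.04 to 0.09 for Tgfbr2. That of Gfi1b was 0 to 0.02. Replicates share only a number: the deviations of replicate 1 from the group means correlated at 0.11 across genes between Ctrl and 2Runx1. With the replicate block 2766 genes were called in the liver, and 210 differed from E13.5 towards lower values. The difference from E13.5 could not be fitted with liver libraries alone, and the planned search for motifs in peaks was not run.

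With −log10 q of at least 5, 3416 peaks were in the 2Runx1 list only and 5453 in the Ctrl list only. Shares of genes near such peaks followed the window and that threshold by construction. For 2Runx1-only peaks and windows of 10000 and 100000 bases, or the stricter q at 50000 bases, they were 12.7%, 65.7% and 27.4% of higher genes, 16.5%, 68.5% and 32% of lower genes, and 12.7%, 63.3% and 26.7% of all tested genes. For Ctrl-only peaks they were 16.7%, 67.9% and 37.8% of higher genes, 24.3%, 72.4% and 40.2% of lower genes, and 17.6%, 66.6% and 36.3% of all tested genes. The 2 libraries a group limit the precision of each RNA value, and the pooled peak lists allow none to be given.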
